A study of Homo sapiens with 9 samples.

Results

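Genes of protein folding and degradation in the endoplasmic reticulum (ER) were followed across 3 groups of HEK293 cells, a human embryonic kidney line. The set held 39 genes, chosen as the ATF6 and XBP1 arms of the unfolded protein response, the ER chaperones and oxidoreductases, and the machinery of ER-associated degradation. Of these, 34 had a probe set of their own among 22011 probe sets. ATF6B, HSP90B1 and PDIA3 were read only by probe sets shared with other genes, P4HB and SEC61B had no probe set annotated to them here, and none of these 5 is described further. All groups were HEK293 cultures with no other genetic change named, collected 48 h after transfection. They had received a control siRNA (siCTR), an siRNA against DBC1, the protein of the gene CCAR2 (siDBC1), or an siRNA against the zinc finger protein ZNF326, also called ZIRD (siZNF326). Each group had 3 arrays from independent experiments, and values are log2 expression after RMA normalization. Replicate numbers are not stated to mark experiments shared between groups. The cells came from 1 line, and how many siRNA duplexes were used per target is not given in the sources used here.

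Proteins that enter the secretory pathway fold in the ER with the help of chaperones, lectins and enzymes that form disulfide bonds, and those that fail are sent back to the cytosol for destruction by the proteasome. A shortage of folding capacity is sensed by membrane proteins that start the arms of the unfolded protein response. ERN1 (IRE1) splices the mRNA of the transcription factor XBP1, ATF6 is cut free in the Golgi to act on chaperone genes, and the kinase EIF2AK3 (PERK) phosphorylates the initiation factor eIF2 and so raises translation of ATF4. Other kinases raise ATF4 through eIF2 as well, so ATF4 targets can move without the ATF6 and XBP1 arms. The comparisons below set these arms beside the ATF4 targets in the same cells.

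Array medians lay between 5.58 and 5.90, and the lowest, siDBC1 replicate 2, and the 2 highest, siDBC1 replicate 3 and siZNF326 replicate 1, recur below. CCAR2 was lower in siDBC1 than in siCTR by 1.16 log2 units (mean difference −1.16, SE 0.079, limma adjusted p = 0.0116), a call that was lost, with all others of that comparison, with a replicate block or only the 2 groups. The CCAR2 call was also lost on leaving out siCTR replicate 2, siDBC1 replicate 1 or 2, or siZNF326 replicate 3. ZNF326 itself differed by 0.28 between siZNF326 and siCTR (adjusted p = 0.851) and so showed no fall, and the group is called here by its label. Of the HEK293 markers, KRT8, KRT18, PAX2, LHX1, CDH2 and VIM were above the array median on all 9 arrays and EPCAM on 1. Of 12 measured markers of blood cells, fibroblasts, hepatocytes and secretory cells, PTPRC, CD3E, DCN, ALB and JCHAIN were below the lower quartile on all 9, but COL1A1 was above the median on 9 and APOA1 on 8. RNA came from whole cultures, so fewer cells with a transcript and less of it per cell cannot be told apart.

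With the deposited values, no ER gene passed the test in siDBC1 or in the arrays labelled siZNF326. Some ATF4 targets did in both. Neither result held under every planned fit. After quantile normalization HERPUD1 passed in both comparisons (limma adjusted p = 0.0364 and 0.0258), and XBP1 in the arrays labelled siZNF326 (adjusted p = 0.0395). Of all probe sets, 69 and 196 passed there. In siDBC1, 0 of 34 ER genes had a limma adjusted p below 0.05 (smallest 0.425), and over all probe sets 0.0363% did. At an unadjusted p under 0.05 there were 5 ER genes, 3 higher and 2 lower, where 6.18% of all probe sets passed, 3.63% higher and 2.55% lower. The median difference of the ER genes from siCTR was −0.078, with 15 above and 19 below, and that of all probe sets was 0.014. In the arrays labelled siZNF326, 0 of 34 passed (smallest adjusted p 0.132, background 0.15%), and 7 did at an unadjusted p under 0.05, 5 higher and 2 lower (background 8.65%, of which 6.13% higher and 2.52% lower). Their median was 0.20, with 24 above and 10 below, beside 0.032 for all probe sets. It was 0.11 with arrays centred on their medians, 0.12 after quantile normalization, and −0.028, with 15 above and 19 below, with the median of each array as a covariate, a choice made after seeing the data. Both comparisons use the same siCTR arrays.

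The ATF4 targets, a list of 42 genes of which 40 were measured, stood much further from siCTR. Their median was −0.73 in siDBC1, with 40 of 40 below siCTR and 3 lower after adjustment over all probe sets. It was −0.93 in the arrays labelled siZNF326, with 39 of 40 below and 10 passing as lower. CHAC1, a glutathione-degrading enzyme, fell by 1.46 in siDBC1 and fell by 2.19 in the arrays labelled siZNF326 (adjusted p = 0.0116 and 0.00133). DDIT3, which encodes CHOP, fell by 1.15 in the latter (adjusted p = 0.0391) and differed by −1.27 in siDBC1 (adjusted p = 0.0607). The ATF4 calls depended on the fit. In siDBC1 they were 0 with a replicate block or with only the 2 groups, where no probe set passed. In the arrays labelled siZNF326 these fits gave 1 and 2. With arrays centred on their medians and after quantile normalization there were 16 and 21 in siDBC1, among 46 and 69 calls over all probe sets. DDIT3 in siDBC1 passed in these 2 fits (limma adjusted p = 0.0104 and 0.0115). Leaving out single arrays gave 0 to 1 calls in siDBC1 and 1 to 17 in the arrays labelled siZNF326. The medians kept within −0.81 to −0.59 and −0.98 to −0.82 on such omissions. In siDBC1 CHAC1 had adjusted p = 0.103 with the block and 0.253 with only the 2 groups, and in the arrays labelled siZNF326 DDIT3 had 0.0979 and 0.0838 (limma). Of the single omissions, the CHAC1 call in siDBC1 was lost without siCTR replicate 2, any of the siDBC1 arrays or siZNF326 replicate 3. The DDIT3 call in the arrays labelled siZNF326 was kept on leaving out siDBC1 replicate 2 or 3 and lost on each of the others. This list was drawn up with earlier results of these data known, so it sets a scale for the ER genes and is no independent evidence of the fall.

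**Figure D1:**
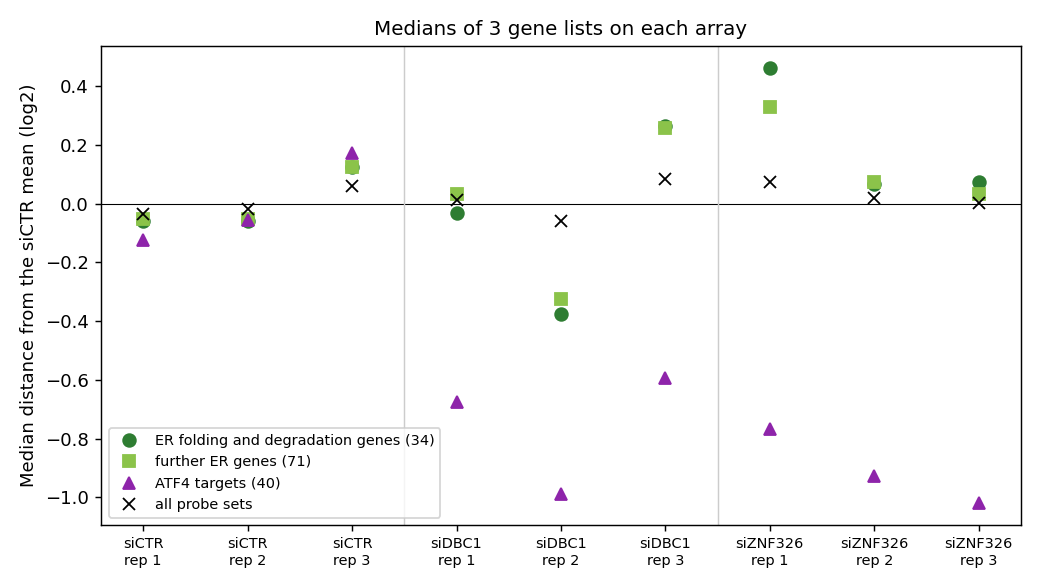
Median distance from the siCTR mean (log2, vertical axis) on each of the 9 arrays for the 34 ER folding and degradation genes, 71 further ER genes, 40 ATF4 targets and all probe sets. The ATF4 targets lie at −0.59 or below on every siDBC1 and siZNF326 array, while the ER genes run from −0.38 on siDBC1 replicate 2 to 0.46 on siZNF326 replicate 1.

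Array by array, the lists differed in level relative to siCTR, while their order within siDBC1 was the same. Measured from the mean of siCTR, their median was −0.030, −0.38 and 0.26 on siDBC1 replicates 1 to 3, where that of the ATF4 targets was −0.68, −0.99 and −0.59. On the arrays labelled siZNF326 it was 0.46, 0.066 and 0.073, where the ATF4 targets stood at −0.77, −0.93 and −1.02. The siCTR arrays gave −0.059, −0.058 and 0.12 for the ER genes. Thus the ER genes as a list lay on either side of siCTR in siDBC1, while the ATF4 targets lay below siCTR on all 6 arrays. On the arrays labelled siZNF326 the ER genes lay above the siCTR mean, but replicates 2 and 3 lay under siCTR replicate 3. All probe sets stood at 0.075, 0.019 and 0.0034 on the arrays labelled siZNF326.

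Members differed in spread, and the same arrays were extreme for many of them. Within groups, the SD of the ER genes had a median of 0.271 log2 units, beside 0.207 for all probe sets. It ran from 0.064 for DERL3 and 0.066 for DNAJB9 to 0.52 for LMAN1 and DNAJC10 and 0.63 for DNAJC3. Of the 34 genes, 22 had their lowest value on siDBC1 replicate 2, and 18 had their highest on siZNF326 replicate 1. After quantile normalization, which gives all arrays the same distribution, these counts were 15 and 11 and the median SD was 0.157. The part of this difference between arrays in the results was not tested beyond the values given. No ER gene lay below the lower quartile of any array, and 27 lay above the median of all 9. The SDs of the ER genes and of all probe sets were therefore not compared at matched levels of expression.

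**Figure D2:**
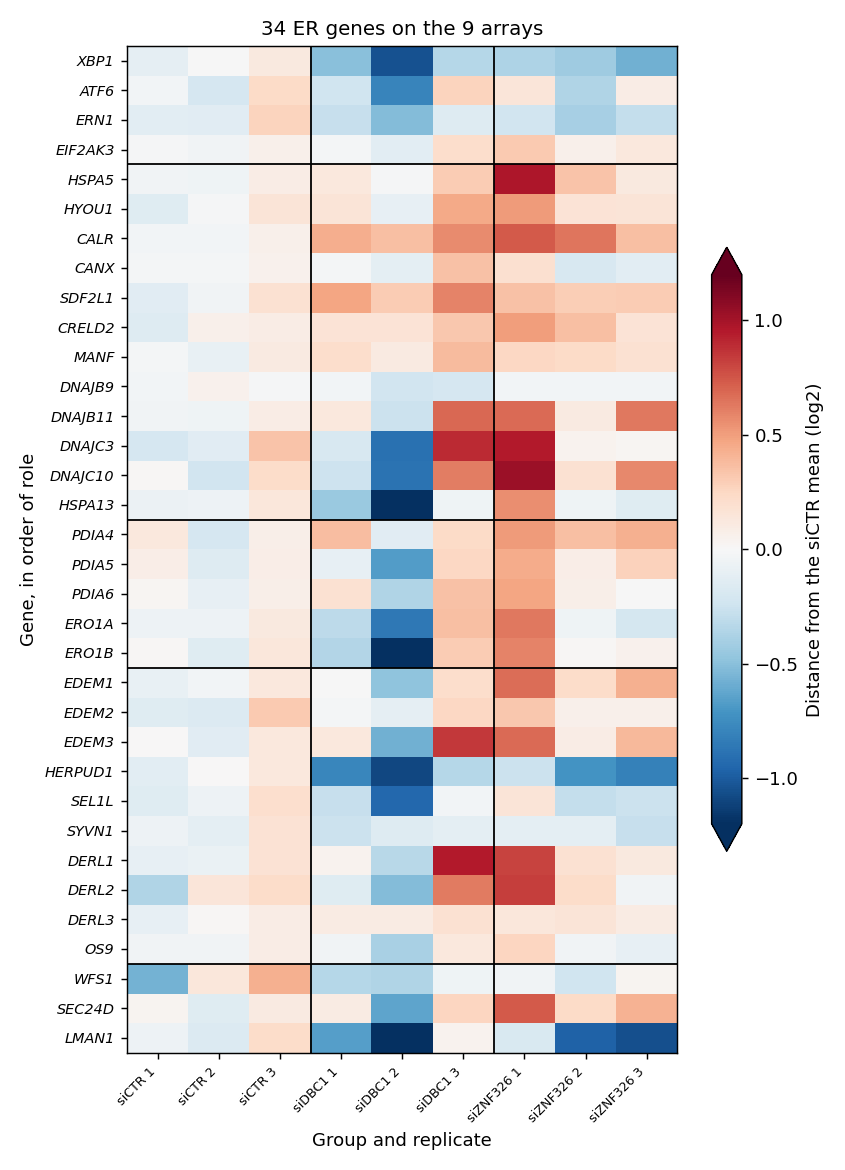
Distance of each of the 34 ER genes (rows, in order of role) from its siCTR mean (colour, log2, clipped at the ends of the scale) on the 9 arrays (columns). Most rows are blue on siDBC1 replicate 2 and red on siZNF326 replicate 1, whereas XBP1 and HERPUD1 are blue on all 6 arrays of siDBC1 and siZNF326, and CALR and SDF2L1 are red on all 6.

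The genes that stood apart from siCTR on all 6 arrays of both groups went both ways. XBP1, ERN1 and HERPUD1 lay below all 3 siCTR arrays, and CALR, SDF2L1, CRELD2, MANF and DERL3 lay above them. In siDBC1 the margin was narrow for MANF (8.610 against 8.608), DERL3 (6.537 against 6.523) and ERN1 (5.970 against 5.986). By group, 3 of 34 ER genes (8.82%) lay wholly below siCTR in siDBC1 and 5 (14.7%) wholly above, beside 3.66% and 5.18% of all probe sets. In the arrays labelled siZNF326 the counts were 4 (11.8%) and 11 (32.4%), beside 5.27% and 12.9%. The share of all probe sets apart in both groups at once was not counted, and both groups were set against the same siCTR arrays. The genes added in the arrays labelled siZNF326 were LMAN1 below and HSPA5, DNAJB11, PDIA4, PDIA5, EDEM1 and SEC24D above. PDIA5 was so by a narrow margin (6.672 against 6.664). After quantile normalization XBP1, ERN1, HERPUD1 and CALR stayed apart from siCTR on all 6 arrays. SDF2L1 (6.62 against 6.64) and MANF (8.50 against 8.56) then overlapped siCTR on siZNF326 replicate 1. CRELD2 did so on siDBC1 replicate 3 (6.83 against 6.89), and DERL3 in both groups.

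The whole set of ER genes was also described by sequence. The 250 bases before the RefSeq start of each gene (GRCh38.p14) were searched on both strands. The elements sought were those by which the arms are known to act. The ER stress element, CCAAT and CCACG with 9 bases between them, is bound by ATF6 and XBP1 together with the factor NF-Y, and element II, ATTGG and CCACG with 1 base between them, is a shorter form of it. Windows were found for 35 of the 39 genes. The first element was in 9 of 41 windows of the ER genes, from 8 genes, beside 0.074% of all 35116 windows, and element II was in 3 of 41, from 3 genes, beside 0.0513%. Neither was found in the windows of the ATF4 targets or of the further ER genes. Not all genes named above as apart from siCTR in both groups had a match. ERN1 and MANF had neither element, and DERL3 had no window. The unfolded protein response element TGACGTGG was in 2 of the 41 windows (HYOU1, where it overlaps element II, and DNAJC10), beside 0.612% of all. The C/EBP-ATF element TGATGNAA, through which ATF4 acts, was in 1 of 41, that of HERPUD1, beside 3.14% of all windows and 12.7% of those of the ATF4 targets. A match describes the letters and does not show binding. The set was chosen as the ATF6 and XBP1 arms, so an excess of their elements could follow from that choice alone. The same holds for the C/EBP-ATF element in the ATF4 targets, and these shares are no result of the siRNA groups.

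The windows of XBP1 and HERPUD1, which lay below siCTR on all 6 arrays, and of CALR and SDF2L1, which lay above it on all 6 and furthest above it in siDBC1, are printed with the fixed letters of each match in capitals. They cover chr22:28800570-28800819 on the minus strand for XBP1, chr16:56931892-56932141 on the plus strand for HERPUD1, chr19:12938359-12938608 on the plus strand for CALR and chr22:21642052-21642301 on the plus strand for SDF2L1.
XBP1: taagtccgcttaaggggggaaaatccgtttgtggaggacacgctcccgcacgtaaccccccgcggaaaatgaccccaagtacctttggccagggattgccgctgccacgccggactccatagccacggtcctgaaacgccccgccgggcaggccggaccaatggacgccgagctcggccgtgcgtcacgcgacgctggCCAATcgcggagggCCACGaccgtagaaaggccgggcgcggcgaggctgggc
HERPUD1: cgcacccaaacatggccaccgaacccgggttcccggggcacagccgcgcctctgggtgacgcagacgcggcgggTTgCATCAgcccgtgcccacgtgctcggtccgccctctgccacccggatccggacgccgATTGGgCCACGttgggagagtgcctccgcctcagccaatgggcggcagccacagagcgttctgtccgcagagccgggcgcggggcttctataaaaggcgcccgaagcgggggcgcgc
CALR: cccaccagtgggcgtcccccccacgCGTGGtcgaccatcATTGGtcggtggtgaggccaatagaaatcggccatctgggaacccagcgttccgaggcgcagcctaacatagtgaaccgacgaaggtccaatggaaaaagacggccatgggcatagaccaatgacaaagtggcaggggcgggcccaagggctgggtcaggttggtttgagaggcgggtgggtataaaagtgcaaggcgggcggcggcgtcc
SDF2L1: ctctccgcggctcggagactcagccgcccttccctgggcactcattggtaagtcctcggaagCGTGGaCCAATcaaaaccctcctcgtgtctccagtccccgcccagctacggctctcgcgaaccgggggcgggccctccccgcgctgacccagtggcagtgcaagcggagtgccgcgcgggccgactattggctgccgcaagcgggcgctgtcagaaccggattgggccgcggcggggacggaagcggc

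In these windows the match began 52 bases before the start in XBP1, 225 in CALR and 188 in SDF2L1, and in HERPUD1 element II began at 117 and the C/EBP-ATF element, in reverse, at 176. XBP1 has a further window, with no match. The other matches to an ER stress element in measured genes are given because these genes did not follow XBP1 and HERPUD1 below siCTR on all arrays. The HYOU1 window holds the printed element II sequence at 2 places.
HSPA5: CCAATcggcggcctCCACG
CRELD2: CGTGGcgaactcggATTGG
PDIA6: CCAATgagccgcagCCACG
CANX: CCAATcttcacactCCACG
ERO1B: CGTGGtcccgcctcATTGG
HYOU1: CGTGGtCCAAT

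Genes with an ER stress element or element II went in both directions. Of the 10 that were measured, 7 were above siCTR and 3 below in each comparison, with medians of 0.10 in siDBC1 and 0.25 in the arrays labelled siZNF326, and they included both XBP1 and HERPUD1 at the low end and CALR and SDF2L1 among the highest. The 21 measured genes with a window and neither element had medians of −0.16 and 0.15.

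Among the sensors and factors, XBP1 stood lower in both groups, ERN1 by less, and ATF6 and EIF2AK3 overlapped siCTR. XBP1 read 8.60, 8.71 and 8.82 on the siCTR arrays, 8.21, 7.67 and 8.37 in siDBC1 and 8.34, 8.28 and 8.14 in the arrays labelled siZNF326. All 6 values lay below the lowest control. The means were 8.71 ± 0.11 (SD, n = 3), 8.08 ± 0.37 and 8.25 ± 0.10. The difference from siCTR was −0.63 (1.54-fold, SE 0.18) in siDBC1 and −0.46 (1.37-fold) in siZNF326, and neither passed over all probe sets (limma adjusted p = 0.553 and 0.526). After quantile normalization the second was −0.58 and passed (adjusted p = 0.0395), and the first was −0.61 (adjusted p = 0.0581). The value is 1 per gene and array, so the spliced and unspliced forms of XBP1 mRNA were not told apart.

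ERN1, the endonuclease that splices XBP1, read 5.997, 5.99 and 6.39 in siCTR, 5.85, 5.60 and 5.97 in siDBC1 and 5.89, 5.73 and 5.83 in the arrays labelled siZNF326. The highest siDBC1 value, 5.97, lay just under the lowest control, 5.99, so these groups barely separated. The differences were −0.32 and −0.31 (adjusted p = 0.821 and 0.599), and they were −0.18 and −0.17 without siCTR replicate 3. ATF6 read 8.14, 7.98 and 8.41 in siCTR, 7.94, 7.38 and 8.45 in siDBC1 and 8.32, 7.81 and 8.26 in the arrays labelled siZNF326. Its groups overlapped throughout, and siDBC1 replicates 2 and 3 were the lowest and highest of all. EIF2AK3, the kinase upstream of ATF4, read 5.71, 5.68 and 5.78 in siCTR, 5.71, 5.60 and 5.93 in siDBC1 and 6.04, 5.78 and 5.86 in the arrays labelled siZNF326. Its differences were 0.020 (95% interval −0.23 to 0.27) and 0.17 (−0.088 to 0.42). ATF4 itself differed by 0.0070 and −5.33e-05, with an interval of −0.27 to 0.28 for the former.

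**Figure D3:**
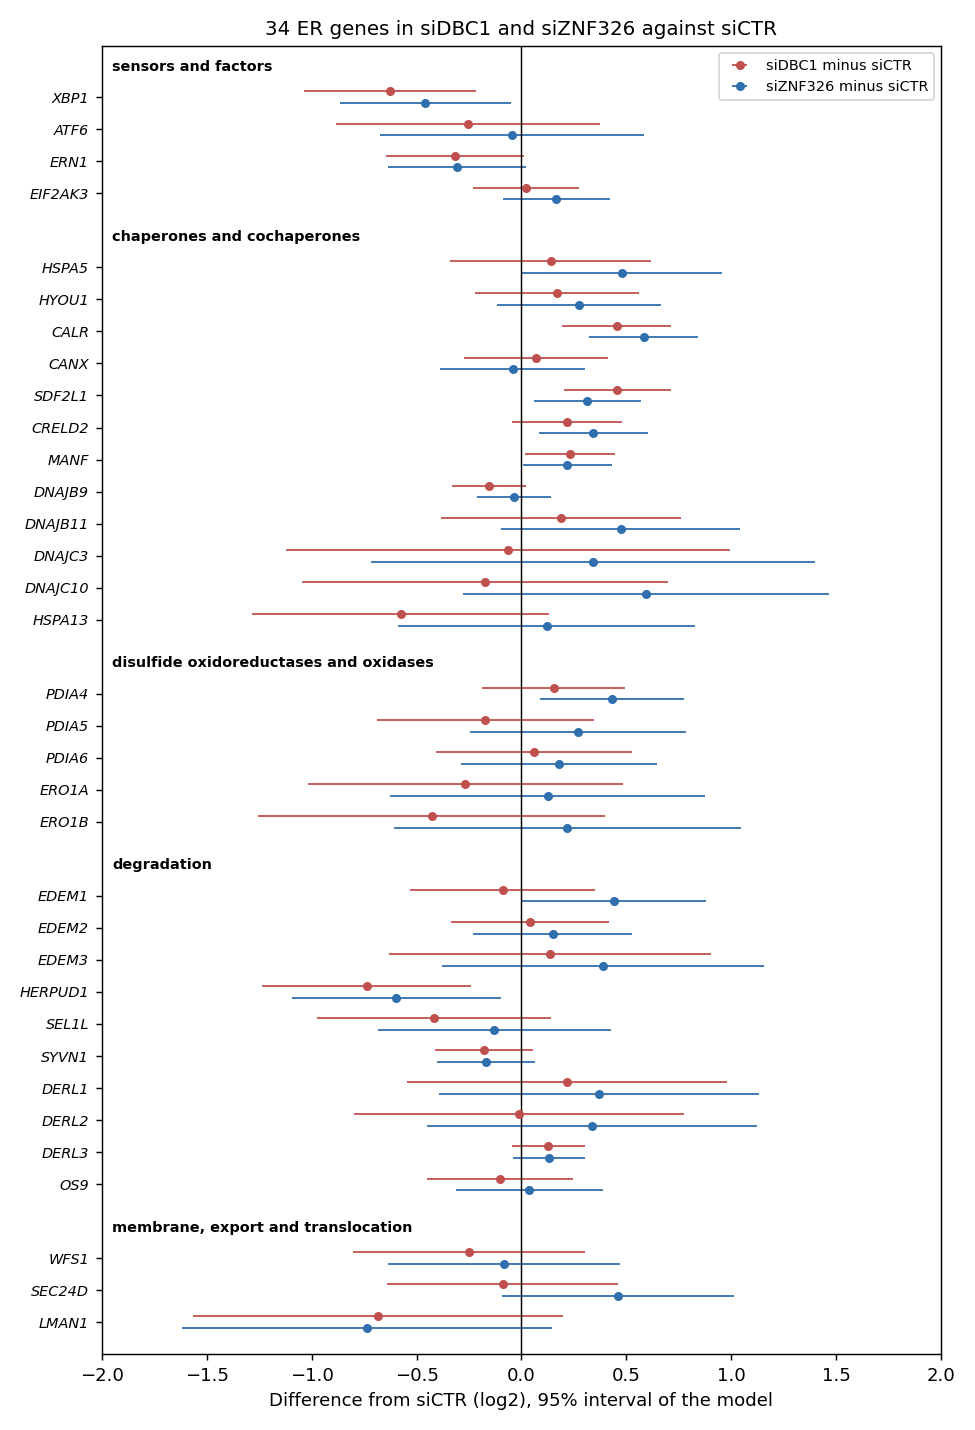
Difference from siCTR (log2, horizontal axis; points with the 95% interval of the model) for the 34 ER genes in order of role, in siDBC1 (red) and siZNF326 (blue). XBP1 and HERPUD1 lie below 0 and CALR, SDF2L1 and MANF above 0 with intervals clear of 0 in both comparisons, before adjustment for the 22011 probe sets, and most other intervals span 0.

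Most chaperones and cochaperones stood above siCTR. Of 12 measured, 8 were above siCTR in siDBC1 (median 0.15) and 10 in the arrays labelled siZNF326 (median 0.33), and 4 and 6 lay above all control arrays, beside 5.18% and 12.9% of all probe sets. The siDBC1 median ran from −0.019 without siDBC1 replicate 3 to 0.27 without siDBC1 replicate 2. CALR, the lectin chaperone calreticulin, read 10.11, 10.11 and 10.21 in siCTR, 10.58, 10.50 and 10.71 in siDBC1 and 10.88, 10.79 and 10.50 in the arrays labelled siZNF326. Every array of siDBC1 and siZNF326 was above every control, while these groups overlapped each other. The differences were 0.45 (1.37-fold, SE 0.11) and 0.58 (1.498-fold, SE 0.11), with limma adjusted p = 0.439 and 0.132. Leaving out any single array kept them within 0.40 to 0.50 and 0.50 to 0.69. CANX, the membrane-bound lectin related to CALR, differed by 0.069 and −0.042 and overlapped siCTR in both groups.

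SDF2L1, a partner of the ER cochaperone DNAJB11, read 6.37, 6.47 and 6.69 in siCTR, 6.98, 6.81 and 7.11 in siDBC1 and 6.86, 6.80 and 6.81 in the arrays labelled siZNF326. All 6 lay above the highest control, by the least on siZNF326 replicate 2. The differences were 0.46 (SE 0.11, adjusted p = 0.425) and 0.31 (adjusted p = 0.470). MANF, a small ER protein that binds HSPA5, read 8.48, 8.41 and 8.61 in siCTR, 8.71, 8.61 and 8.88 in siDBC1 and 8.75, 8.73 and 8.68 in the arrays labelled siZNF326. Its lowest siDBC1 value sat at the level of the highest control. The differences were 0.23 and 0.22 (adjusted p = 0.783 and 0.565). CRELD2, a secreted ER stress protein, read 6.57, 6.79 and 6.81 in siCTR, 6.89, 6.89 and 7.05 in siDBC1 and 7.23, 7.08 and 6.89 in the arrays labelled siZNF326. Its differences were 0.22 and 0.34 (adjusted p = 0.892 and 0.422).

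**Figure D4:**
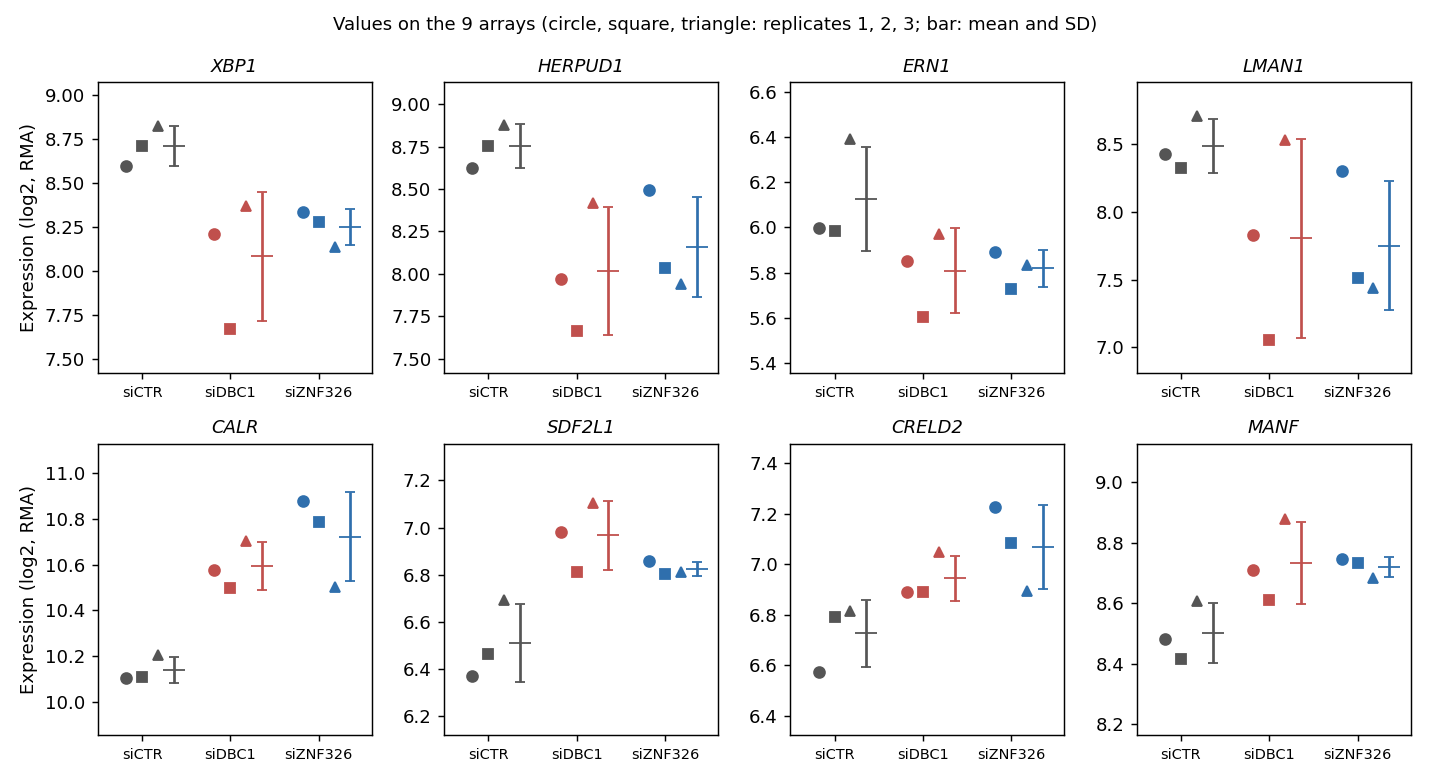
Log2 expression (vertical axes, each panel on its own scale) of XBP1, HERPUD1, ERN1, LMAN1, CALR, SDF2L1, CRELD2 and MANF on the 9 arrays by group, with the mean and SD of 3 arrays beside the points. XBP1 and HERPUD1 lie below siCTR and CALR, SDF2L1, CRELD2 and MANF above it, on all 6 other arrays, while LMAN1 on siDBC1 replicate 3 (8.53) lies within the siCTR range.

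HSPA5 (BiP), the central ER chaperone and the classical target of ATF6, read 9.24, 9.23 and 9.37 in siCTR, 9.41, 9.26 and 9.58 in siDBC1 and 10.25, 9.63 and 9.40 in the arrays labelled siZNF326. The siDBC1 arrays overlapped siCTR, and the others lay above it, with replicate 1 furthest. The differences were 0.14 (adjusted p = 0.985) and 0.48 (adjusted p = 0.578), and the second was 0.23 without siZNF326 replicate 1. HYOU1, which exchanges nucleotide on HSPA5, differed by 0.17 and 0.28. Among the J-domain proteins that assist HSPA5, DNAJB11 differed by 0.19 and 0.47, DNAJC3 by −0.065 and 0.34, and DNAJB9 by −0.16 and −0.035, and none passed. DNAJB9 had the same value, 4.84, on 5 arrays, all 3 labelled siZNF326 among them, and read 4.65 and 4.68 on siDBC1 replicates 2 and 3.

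DNAJC10, a J-domain protein that reduces disulfide bonds, and HSPA13, an ATPase of the HSP70 type in microsomes, varied widely between arrays of a group, with within-group SDs of 0.52 and 0.42. DNAJC10 read 7.31, 7.07 and 7.52 in siCTR, 7.05, 6.41 and 7.92 in siDBC1 and 8.32, 7.48 and 7.87 in the arrays labelled siZNF326. HSPA13 read 7.95, 7.95 and 8.15 in siCTR, 7.57, 6.79 and 7.97 in siDBC1 and 8.57, 7.97 and 7.88 in the arrays labelled siZNF326. For both, siDBC1 replicate 2 was the lowest of all arrays and siZNF326 replicate 1 the highest. The differences of HSPA13 from siCTR were −0.58 and 0.12 (adjusted p = 0.897 and 0.919), the first −0.25 without siDBC1 replicate 2.

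The disulfide oxidoreductases and the oxidases that recharge them were measured for 5 of 7 genes. In siDBC1, 2 were above siCTR and 3 below, with a median of −0.17, and none was separate from siCTR. In the arrays labelled siZNF326, 5 of 5 were above siCTR, with a median of 0.22 and differences from 0.12 to 0.43. This rested largely on siZNF326 replicate 1, without which 4 were above and 1 below and the median was 0.033. With the array median as a covariate 2 were above and 3 below. In siDBC1 the median was 0.077, with 4 above, without siDBC1 replicate 2. PDIA4, a protein disulfide isomerase, read 7.89, 7.57 and 7.84 in siCTR, 8.14, 7.63 and 7.997 in siDBC1 and 8.28, 8.13 and 8.19 in the arrays labelled siZNF326. The last 3 lay above all controls and the siDBC1 arrays did not. Its differences were 0.15 and 0.43 (adjusted p = 0.968 and 0.447). The related PDIA5 read 6.66, 6.44 and 6.66 in siCTR, 6.49, 5.92 and 6.84 in siDBC1 and 7.04, 6.67 and 6.86 in the arrays labelled siZNF326, with differences of −0.17 and 0.27. PDIA6 differed by 0.059 and 0.18. ERO1A and ERO1B, the oxidases, differed by −0.27 and −0.43 in siDBC1 and by 0.12 and 0.22 in the arrays labelled siZNF326, with standard errors of 0.32 and 0.36.

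In the degradation machinery HERPUD1 stood apart. It is a membrane protein that organises the ubiquitin ligase complex, and its gene is known to respond to ATF4 as well as to ATF6 and XBP1. HERPUD1 read 8.63, 8.76 and 8.88 in siCTR, 7.97, 7.66 and 8.42 in siDBC1 and 8.49, 8.03 and 7.94 in the arrays labelled siZNF326. All 6 lay below the lowest control. The means were 8.75 ± 0.13 (SD, n = 3), 8.02 ± 0.38 and 8.16 ± 0.29. The difference was −0.74 (1.67-fold, SE 0.21) in siDBC1 and −0.60 (1.51-fold, SE 0.21) in the arrays labelled siZNF326, and neither passed (limma adjusted p = 0.573 and 0.489). After quantile normalization the values were 8.70, 8.83 and 8.85 in siCTR, 8.01, 8.01 and 8.18 in siDBC1 and 8.24, 8.02 and 7.96 in siZNF326. The differences were then −0.73 and −0.72, and both passed (adjusted p = 0.0364 and 0.0258), along with 69 and 196 calls among all probe sets in place of 8 and 33.

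The ligase that HERPUD1 serves and its partners lay nearer to siCTR. SYVN1 (HRD1), the ubiquitin ligase, differed by −0.18 and −0.17 (adjusted p = 0.923 and 0.673), and 4 of its 9 arrays shared 1 value. SEL1L, its adaptor, read 7.30, 7.39 and 7.65 in siCTR, 7.18, 6.51 and 7.41 in siDBC1 and 7.60, 7.16 and 7.19 in the arrays labelled siZNF326, with differences of −0.42 and −0.13 (adjusted p = 0.925 and 0.892). The first was −0.15 without siDBC1 replicate 2. DERL1 and DERL2, of the derlin family in the exit channel, differed by 0.22 and −0.011 in siDBC1 and by 0.37 and 0.34 in the arrays labelled siZNF326. DERL3, another derlin, read 6.33, 6.45 and 6.52 in siCTR, 6.54, 6.54 and 6.62 in siDBC1 and 6.57, 6.59 and 6.54 in the arrays labelled siZNF326. Its 6 values cleared the highest control by a small margin, with differences of 0.13 in both (adjusted p = 0.928 and 0.659). OS9, a lectin that hands over misfolded glycoproteins, differed by −0.10 and 0.037.

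The EDEM proteins, which trim mannose from glycoproteins bound for degradation, did not follow HERPUD1. EDEM1 read 6.27, 6.33 and 6.49 in siCTR, 6.36, 5.88 and 6.57 in siDBC1 and 7.03, 6.58 and 6.79 in the arrays labelled siZNF326. The last 3 were above all other arrays, replicate 2 (6.584) by a narrow margin over siDBC1 replicate 3 (6.574). Its differences from siCTR were −0.090 and 0.44 (adjusted p = 0.998 and 0.578). EDEM2 differed by 0.041 and 0.15 and EDEM3 by 0.14 and 0.39, and both overlapped siCTR in each group.

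Of the genes of the ER membrane and of export, LMAN1 had the largest negative difference. LMAN1 (ERGIC-53) is a lectin that carries glycoproteins out of the ER, and it was described in full after its values were seen, as were SEL1L and DERL3. It read 8.43, 8.33 and 8.71 in siCTR, 7.83, 7.06 and 8.53 in siDBC1 and 8.30, 7.51 and 7.44 in the arrays labelled siZNF326. The siDBC1 arrays overlapped siCTR through replicate 3, and the others lay below it, with replicate 1 by a narrow margin. The differences were −0.68 (SE 0.38, adjusted p = 0.918) and −0.74 (SE 0.38, adjusted p = 0.640), with −0.31 for the first without siDBC1 replicate 2. SEC24D, a cargo adaptor of the COPII coat, read 6.20, 6.02 and 6.26 in siCTR, 6.26, 5.53 and 6.42 in siDBC1 and 6.89, 6.39 and 6.57 in the arrays labelled siZNF326. It differed by −0.090 and 0.46 (adjusted p = 0.998 and 0.640). WFS1, a membrane protein of the ER, differed by −0.25 and −0.084, and its siCTR arrays alone spanned 5.43 to 6.42.

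The direct comparison of the arrays labelled siZNF326 with siDBC1 asked whether the ER genes responded differently in these groups. No ER gene passed (0 of 34, smallest limma adjusted p 0.645, background 0.00909%), and 1 did at an unadjusted p under 0.05 (background 7.31%, of which 4.88% higher and 2.43% lower), EDEM1 at 0.53 (SE 0.19). EDEM1 was also the 1 gene with all arrays labelled siZNF326 above all siDBC1 arrays, and 0 lay wholly below, beside 5.21% and 4.24% of all probe sets. Its margin was narrow (6.584 against 6.574). The median difference was 0.16, with 30 of 34 genes higher in the arrays labelled siZNF326, beside 0.024 for all probe sets. Without siDBC1 replicate 2 it was 0.029, with 19 higher and 15 lower. It was 0.083 with arrays centred on their medians, 0.088 after quantile normalization, and 0.017 (19 higher, 15 lower) with the array median as a covariate. Differences were largest for DNAJC10 at 0.77, HSPA13 at 0.70 and ERO1B at 0.65 (adjusted p = 0.714, 0.685 and 0.735). XBP1 and HERPUD1 differed between the groups by 0.17 (95% interval −0.24 to 0.58) and 0.14 (−0.36 to 0.64), and CALR by 0.13 (−0.13 to 0.39). The first 2 intervals reach differences as large as those of XBP1 and HERPUD1 from siCTR in the arrays labelled siZNF326. The 1 gene at an unadjusted p under 0.05 became 0 without siDBC1 replicate 2 or siZNF326 replicate 1, 11 without siDBC1 replicate 3, where 19.0% of all probe sets were at that p, and 2 without siDBC1 replicate 1, siZNF326 replicate 2 or siZNF326 replicate 3.

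Counts in the comparisons with siCTR moved with single arrays too. In siDBC1 the 5 genes at an unadjusted p under 0.05 became 9 without siDBC1 replicate 3, where the share of all probe sets was 9.005%. The median of the 34 ER genes, −0.078, became 0.13 without siDBC1 replicate 2 and −0.22 without siDBC1 replicate 3. In the arrays labelled siZNF326 the 7 genes became 2 without siCTR replicate 2, 4 without siZNF326 replicate 1 and 11 without siDBC1 replicate 2, beside 5.75%, 5.71% and 12.1% of all probe sets. The median of 0.20 became 0.074 without siZNF326 replicate 1.

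A further list of 94 ER genes, of the translocon, signal peptidase, glycan processing, COPII transport and degradation, had 71 measured. None passed in siDBC1 or in the arrays labelled siZNF326 (0 of 71 by limma in each), and 2 and 7 did at an unadjusted p under 0.05, 2.82% and 9.86% of the list beside 6.18% and 8.65% of all probe sets. Medians were −0.0014 and 0.14. In siDBC1 the 4 with the smallest p were FKBP10 at −0.35, BCAP31 at 0.34, ERP29 at −0.34 and POFUT1 at −0.38. In the arrays labelled siZNF326 they were UFD1, a partner of the ATPase VCP, at 0.47, the KDEL receptor gene KDELR3 at 0.73, the translocon channel gene SEC61A1 at 0.49 and SDF2, a paralog of SDF2L1, at 0.71 (adjusted p from 0.297 to 0.416), each above all control arrays. All 7 genes at an unadjusted p under 0.05 there were higher, beside 6.13% of all probe sets that were higher at that p.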

How the data were processed

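HEK293 RNA was measured on 9 Affymetrix whole-transcript arrays, 3 per siRNA. The deposited values are log2 expression made by the authors with RMA, per the submitters' processing notes, 1 per transcript cluster and array, with probe annotation on hg18. The sources used here give no RMA version or filter. Detection values were not analysed here. Of 22011 probe sets, 14432 carry 1 gene symbol, 2408 several and 5171 none. Genes were read from probe sets with 1 symbol, and no member had more than 1 of these. limma 3.58.1 in R 4.3.3 (lmFit, eBayes) was fitted to all probe sets and arrays with the 3 groups and no filter. Tests are two-sided, adjustment was by the Benjamini-Hochberg method across every probe set of a comparison, and a call is an adjusted p below 0.05. The fit was tested on simulated data. Replicates are independent experiments per the design text. The number of arrays limits the precision.

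Genes named in full were the sensors, HSPA5, HERPUD1 and the 6 members with the smallest p per comparison; LMAN1, SEL1L and DERL3 were added after their values were seen. Members and lists were chosen with earlier results of these data known. Alternatives were quantile normalization, median centring, a filter on low values, fits of 2 groups, a replicate block, a trended robust prior, other uses of probe sets, and leaving out each array. The median of each array as a covariate was added after seeing the data. Promoter windows, element matches and coordinates are from RefSeq (GRCh38.p14). Same-numbered arrays of different groups did not regularly deviate together (correlations of deviations from −0.30 to 0.40), so numbers were not taken to pair samples. Experiments shared under other numbers cannot be told from these values.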

Additional observations from a re-analysis of the deposited data

How the results depend on the processing

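No ER gene passed in any comparison on leaving out any single array, with arrays centred on their medians, with the filter, with only the 2 groups, with a replicate block or with a trended robust prior. After quantile normalization 1 passed in siDBC1 (HERPUD1) and 2 in siZNF326 (HERPUD1, XBP1). With the array median as a covariate, added after seeing the data, 7 passed in siDBC1 (XBP1, CALR, SDF2L1, HSPA13, HERPUD1, SEL1L, LMAN1) and 4 in siZNF326 (XBP1, CALR, HERPUD1, LMAN1), where 545 and 495 of all probe sets did, and the siZNF326 median was −0.028. Counts at an unadjusted p under 0.05, 5 in siDBC1, 7 in siZNF326 and 1 between them, became 12, 14 and 8 with the covariate (17.5%, 15.5% and 14.1% of all probe sets), 9, 11 and 5 with centring (7.78%, 10.1% and 9.24%), and 9, 9 and 6 after quantile normalization (9.22%, 11.03% and 9.89%). With only the 2 groups they were 4, 11 and 0, and with the filter 5, 8 and 3 (4.998%, 12.9% and 5.08%, and 7.63%, 11.3% and 8.92%, of probe sets). With the replicate block they were 6, 10 and 6 (6.18%, 9.12% and 8.04%), and it called none of them, with 0, 1 and 0 calls over all probe sets in place of 8, 33 and 2. The cause of these shifts was not tested.

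Leaving out 1 array gave counts of 4 to 9, 2 to 11 and 0 to 11, and medians of −0.22 to 0.13, 0.074 to 0.28 and 0.029 to 0.31. The share of all probe sets at an unadjusted p under 0.05 moved as well, over 4.20% to 9.06%, 5.71% to 12.1% and 4.43% to 19.0%. Of the genes named in full, signs turned among such omissions in siDBC1 for ATF6 (−0.52 to 0.015), EIF2AK3 (−0.073 to 0.094), EDEM1 (−0.24 to 0.11), SEC24D (−0.26 to 0.18), DNAJC10 (−0.57 to 0.19) and PDIA5 (−0.38 to 0.077), and in siZNF326 for ATF6 (−0.14 to 0.11) and HSPA13 (−0.095 to 0.25). Signs turned for other ER genes too, since 15 above siCTR in siDBC1 became 24 without siDBC1 replicate 2 and 8 without siDBC1 replicate 3. Between siZNF326 and siDBC1 they turned, among the genes named in full, for XBP1 (−0.038 to 0.31), ATF6 (−0.060 to 0.47), ERN1 (−0.093 to 0.091), HERPUD1 (−0.035 to 0.34), MANF (−0.073 to 0.060), LMAN1 (−0.43 to 0.31) and DERL3 (−0.010 to 0.030). With the covariate HSPA13 in siZNF326 was −0.24, and between the groups ATF6 was −0.033, ERN1 −0.095, HERPUD1 −0.067 and DERL3 −0.024. Between the groups ERN1 was −0.067 and DERL3 −0.074 with centring, and ERN1 −0.071, CRELD2 −0.014 and DERL3 −0.11 after quantile normalization.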
